A study of Mus musculus with 6 samples.

Results

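The interferon-stimulated genes were followed in sorted bone marrow endothelial cells of diabetic and nondiabetic mice. The list holds 47 genes: those that interferons induce and the 4 genes of the interferon receptor chains. A gene entered when a probe set of the array, a group of probes read as a single value, named it and no other gene, and its brightest such probe set over the 6 arrays gave its value. This found 43 of the 47 genes, of 22180 genes measured in the series. All mice were male C57BL/6J, an inbred laboratory strain, with no genetic change named in the labels, and their age was not stated. There were 3 arrays of cells labelled as diabetes and 3 of cells labelled as control, called diabetic and nondiabetic here. The labels describe a model of type 2 diabetes induced by fat-rich feeding. One text, a diet with 60 kcal% fat over 4 months, stands on all 6 arrays, so what the control mice ate cannot be read from it. Each array held amplified RNA of 5000 endothelial cells sorted by flow cytometry. Nothing in the labels ties an array to an animal of its own, and p-values therefore measure only how these arrays spread, which may be technical. In a sort of this kind, fewer cells of a type and less RNA per cell cannot be told apart.

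Interferons are cytokines that put cells into an antiviral state. Type I interferons, the alpha and beta forms, signal through Ifnar1 and Ifnar2, and interferon gamma signals through Ifngr1 and Ifngr2. Janus kinases on these receptors activate STAT transcription factors, which reach their target genes through the interferon-stimulated response element (ISRE) and the gamma-activated site (GAS). The genes downstream encode RNA sensors, enzymes that attack viral RNA, membrane proteins that hold viruses back and GTPases that act on compartments holding pathogens. Endothelial cells respond to both kinds of interferon.

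The shared sequence feature of these genes was looked for in their promoters, since it is a site through which interferon signals can reach a gene. RefSeq promoters of build GRCm38.p6, from 250 bases before to 50 bases after a start site, were found for 36 of the 47 genes. The core of the response element, taken as GAAA, any 2 bases and GAAA again, searched on both strands with overlapping matches allowed, occurred in the promoters of 18 of these genes, or 50%, where 3.99% of 27025 genes with a promoter held it. Among genes with a promoter, the core was present in 6 of 6 GTPase genes and 0 of 4 receptor genes. The GTPase genes Iigp1, Gbp4 and Gbp6 had no promoter here and were not searched. The gamma-activated site, TTCNNNGAA, which reads the same on both strands, occurred in 12 of the 36 genes, or 33.3%, against 9.55% of genes. A match describes letters in this window and says nothing about binding. The windows printed here belong to genes whose array values are given in full further on and whose match lay before the start site, with Igtp added as the neighbour of Irgm2. They are written 5′ to 3′ on the strand of the gene, with the core, or its reverse complement, in capitals. The window of Isg15 lies at chr4:156200855-156200916, minus strand, Bst2 at chr8:71537567-71537622, minus strand, Ifit3 at chr19:34583353-34583436, plus strand, Oas3 at chr5:120777705-120777754, minus strand, Igtp at chr11:58199502-58199551, plus strand, and Irgm2 at chr11:58214893-58214942, plus strand.
Isg15: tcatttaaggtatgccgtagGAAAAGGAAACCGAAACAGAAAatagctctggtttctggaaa
Bst2: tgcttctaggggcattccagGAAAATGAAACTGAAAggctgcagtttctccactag
Ifit3: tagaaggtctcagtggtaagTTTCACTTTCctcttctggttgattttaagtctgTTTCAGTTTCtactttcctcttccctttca
Oas3: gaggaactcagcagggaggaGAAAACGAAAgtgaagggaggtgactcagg
Igtp: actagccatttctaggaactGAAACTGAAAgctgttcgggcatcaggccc
Irgm2: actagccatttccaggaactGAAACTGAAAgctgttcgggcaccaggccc
In Isg15 there were 3 overlapping cores within one stretch, the nearest ending 57 bases before the start site. Bst2 held 2 overlapping cores, and Ifit3 held 2 separate cores on the opposite strand. The windows of Igtp and Irgm2, neighbouring genes of the immunity-related GTPase family, were identical at 48 of 50 bases.

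All 14 listed genes of endothelial cells exceeded the limit used here for dim genes, a log2 value of 5.07. Some genes of other marrow cells were dim, but others exceeded it too. Over the 6 arrays Mpo averaged 10.58, Jchain 10.27 and Ptprc 9.05, so this limit cannot show how pure the sort was. Cdh5, the cadherin of endothelial junctions, stood at 10.88 ± 0.43 in diabetic and 10.98 ± 0.22 in nondiabetic cells (SD, n = 3 each). Array medians lay between 5.21 and 5.28. The diabetic arrays did not form a tight group: the mean of the 14 endothelial genes was 9.53 on diabetic array 1, 8.83 and 8.85 on diabetic arrays 2 and 3, and 8.94 to 9.33 on the nondiabetic arrays. Diabetic array 1 also had the highest mean over all tested genes, 6.84, where the other arrays had 6.69 to 6.73. Values without this array are given beside the counts and for several genes.

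No interferon-stimulated gene passed the test for a difference between diabetic and nondiabetic cells. Of the 43 genes, 40 exceeded the limit for dim genes and were tested with limma, a linear model fitted here to all 13308 genes above that limit. At an adjusted p under 0.05, 0 of 40 genes were higher and 0 were lower, where 0% of all tested genes were called higher and 0.00751% lower. The smallest adjusted p among the 40 was 0.997. At an unadjusted p under 0.05, 2 genes were higher, Iigp1 and Isg15, and 0 were lower, beside 3.19% and 1.07% of all tested genes. Positive differences were found for 27 of the 40 genes and negative ones for 13, where 54% of all tested genes had positive and 46% negative differences. Differences, taken as diabetic minus nondiabetic on the log2 scale throughout, ran from -0.70 for Gbp4 to 0.87 for Iigp1. Their median was 0.07, and the median over all tested genes was 0.02. Without diabetic array 1 the median of the 40 genes was -0.02 and 17 of 40 had a positive difference, while the median of all tested genes was -0.007.

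**Figure D1:**
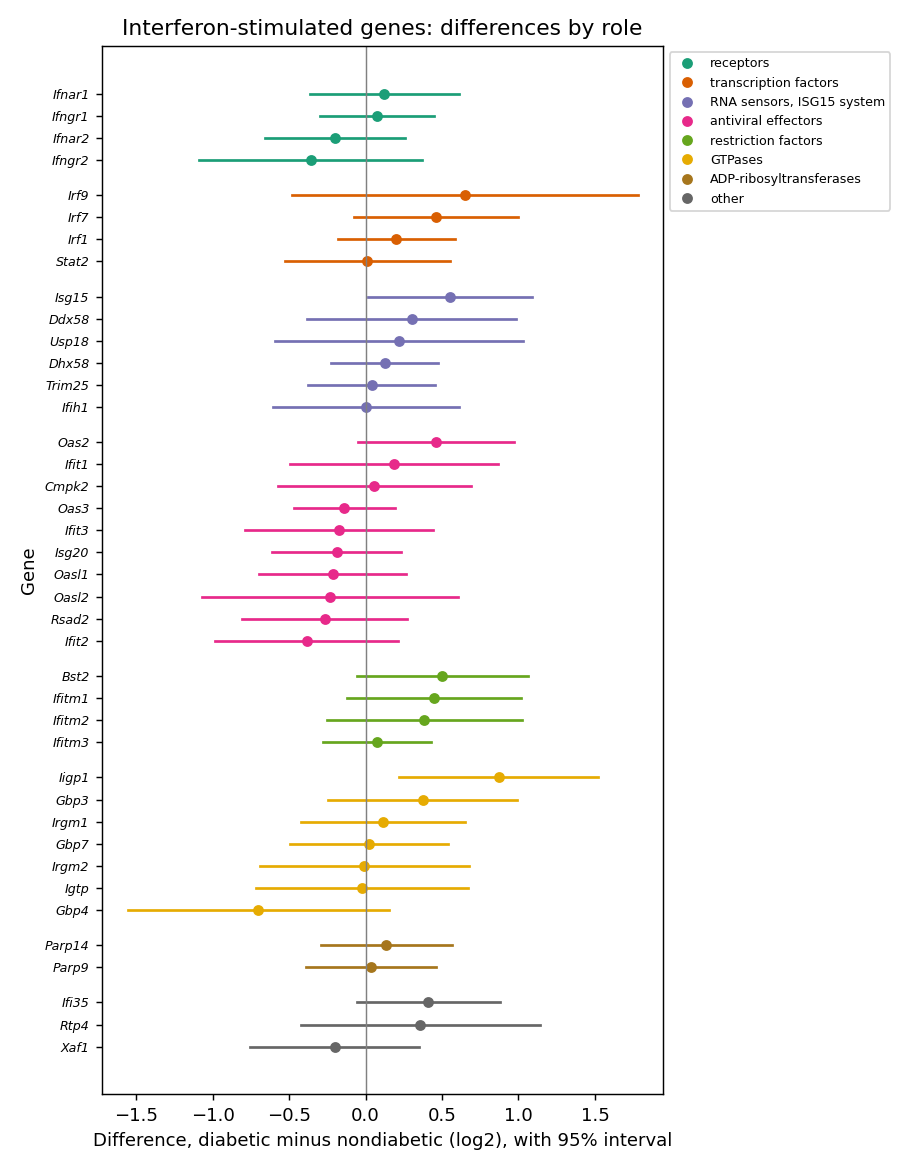
Log2 difference (diabetic minus nondiabetic) of the 40 tested interferon-stimulated genes, ordered by role, with points for estimates and lines for 95% intervals of the limma fit that are not adjusted. The intervals of Iigp1 and Isg15 lie above 0, and the intervals of the remaining genes include 0.

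The distribution of the differences was wider than that of all genes, as were the errors. The median absolute difference was 0.20 among the 40 genes and 0.14 among all tested genes, and the median standard errors were 0.24 and 0.19. The median distance between a gene's highest and lowest array was 0.95 for the 40 genes and 0.64 for all tested genes. The lowest diabetic array exceeded the highest nondiabetic array for 1 of the 40 genes, Iigp1, where 5.28% of all tested genes were so placed. The reverse held for 1 gene, Oas3, where 2.67% of all tested genes were so placed.

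**Figure D2:**
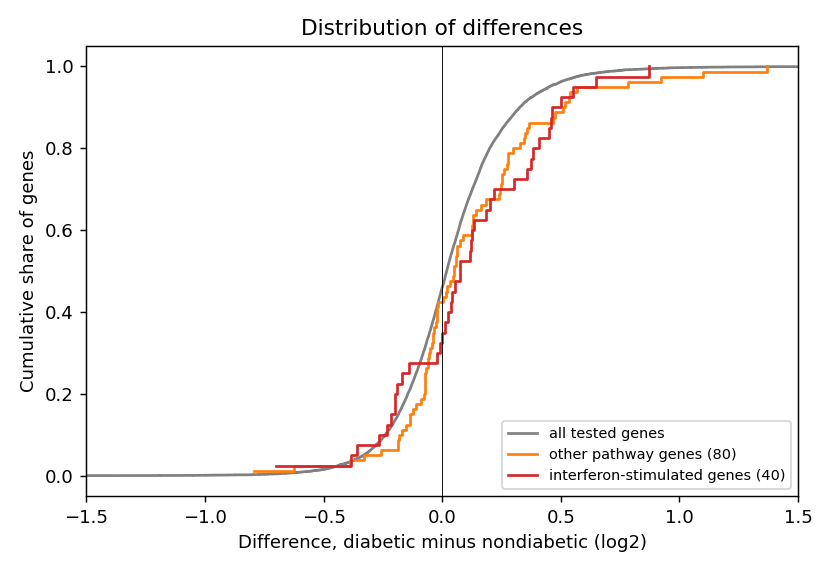
Cumulative share of genes by log2 difference (diabetic minus nondiabetic) for the 40 tested interferon-stimulated genes, 80 other genes of the interferon pathway and all 13308 tested genes. The medians are 0.07, 0.05 and 0.02, and the horizontal axis is limited to ±1.5.

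The receptor chains had levels above the dim limit on every array and differences of both signs. Ifnar2, the chain of the type I receptor chosen here for the highest mean of its class, had log2 values of 10.17, 9.72 and 9.67 on diabetic arrays 1, 2 and 3 and 10.23, 10.13 and 9.81 on nondiabetic arrays 1, 2 and 3. The groups overlapped, with diabetic arrays 2 and 3 lowest, and the difference was -0.20 (SE 0.20). Ifngr2, the signaling chain of the interferon gamma receptor, had values of 8.02, 7.66 and 7.0 on diabetic arrays 1, 2 and 3 and 7.43, 7.95 and 8.38 on nondiabetic arrays 1, 2 and 3. Its arrays spread widely within both groups, and its difference of -0.36 (SE 0.32) had a 95% interval of -1.09 to 0.37. It was -0.08 without diabetic array 3, -0.13 without nondiabetic array 3, -0.59 without diabetic array 1 and -0.60 without nondiabetic array 1. Ifnar1 and Ifngr1, the partner chains, differed by 0.12 and 0.07.

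The 4 transcription factors among the interferon-stimulated genes had positive differences, none of which passed the test. Irf7, which drives the production of type I interferon, had values of 7.15, 6.59 and 6.67 on diabetic arrays 1, 2 and 3 and 6.01, 6.72 and 6.32 on nondiabetic arrays 1, 2 and 3. Nondiabetic array 2 exceeded diabetic arrays 2 and 3, and the difference was 0.46 (SE 0.23), or 0.28 without diabetic array 1. Irf1, a factor induced by interferon gamma, had values of 7.35, 6.97 and 7.17 on diabetic arrays 1, 2 and 3 and 6.90, 7.11 and 6.88 on nondiabetic arrays 1, 2 and 3, and differed by 0.20 (SE 0.16). Irf9, the DNA-binding part of the STAT complex, had the largest difference of this class, 0.65 (SE 0.49), at 6.68 ± 0.96 against 6.03 ± 0.65 (SD, n = 3 each). It rested on diabetic array 1, at 7.74, without which it was 0.12. Stat2, the partner of Irf9, stood at 6.97 ± 0.37 against 6.96 ± 0.29 and differed by 0.01.

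Isg15, the ubiquitin-like protein that interferons induce and that is joined to other proteins, had an unadjusted p of 0.0453 in the limma fit. Its log2 values were 6.75, 6.94 and 6.24 on diabetic arrays 1, 2 and 3 and 6.16, 6.34 and 5.78 on nondiabetic arrays 1, 2 and 3. Diabetic arrays 1 and 2 exceeded all nondiabetic arrays, while diabetic array 3 lay below nondiabetic array 2. The difference was 0.55 (SE 0.23), or 1.46-fold, with an interval of 0.01 to 1.09 and an adjusted p of 0.997. It was 0.39 without nondiabetic array 3 and 0.75 without diabetic array 3. Usp18, the protease that takes ISG15 off proteins and damps the type I receptor, stood at 6.92 ± 0.17 against 6.70 ± 0.78 (SD, n = 3 each). Nondiabetic array 3, at 5.80, was far under the other arrays of Usp18, and without it the difference turned from 0.22 to -0.23.

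Among the RNA sensors, Trim25, the ubiquitin ligase that acts with the sensor RIG-I, had values of 9.12, 8.70 and 8.64 on diabetic arrays 1, 2 and 3 and 8.87, 8.84 and 8.64 on nondiabetic arrays 1, 2 and 3. Apart from diabetic array 1 its arrays lay close together, and the difference was 0.04 (SE 0.18). Ddx58, which encodes RIG-I itself, differed by 0.30 (SE 0.30) and by -0.03 without diabetic array 1. Ifih1, the sensor MDA5, stood at 7.11 ± 0.33 against 7.11 ± 0.45, with a difference of 0.001 and an interval of -0.61 to 0.61. Dhx58, the regulator LGP2, differed by 0.12.

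The enzymes and binding proteins that act on viral RNA were the class with the most negative differences, 7 of 10. Oas2, a synthetase whose product activates the ribonuclease RNase L, had values of 6.33, 5.72 and 5.77 on diabetic arrays 1, 2 and 3 and 5.33, 5.78 and 5.32 on nondiabetic arrays 1, 2 and 3. Diabetic array 1 was highest, nondiabetic array 2 stood just above diabetic arrays 2 and 3, and the difference was 0.46 (SE 0.22), or 0.27 without diabetic array 1. Oas3, a larger synthetase of the same family, had values of 5.44, 5.39 and 5.30 on diabetic arrays 1, 2 and 3 and 5.47, 5.46 and 5.62 on nondiabetic arrays 1, 2 and 3. All diabetic arrays lay below all nondiabetic arrays, yet the groups were separated by -0.14 (SE 0.14) in the log2 mean, and its values stood near the dim limit of 5.07. Ifit3, an RNA-binding scaffold of the antiviral response, had values of 7.46, 7.33 and 7.28 on diabetic arrays 1, 2 and 3 and 7.83, 7.87 and 6.88 on nondiabetic arrays 1, 2 and 3. The nondiabetic arrays held both its highest and its lowest values, and the difference was -0.17 (SE 0.27).

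The remaining genes of this class had positive differences for Ifit1 and Cmpk2 and negative ones otherwise. Ifit1, which binds the ends of foreign RNA, differed by 0.18, and by -0.17 without diabetic array 2, where it stood at 7.97. Its neighbour Ifit2 differed by -0.38 (SE 0.26), by -0.64 without diabetic array 1 and by -0.17 without diabetic array 2. The synthetase-like genes Oasl1 and Oasl2 differed by -0.22 and -0.23. Rsad2, the enzyme viperin, which makes a nucleotide that stops viral polymerases, differed by -0.27 (SE 0.23), and its genomic neighbour Cmpk2, a nucleotide kinase, by 0.06. Isg20, an exonuclease, differed by -0.19.

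The membrane proteins that restrict viruses had positive differences in 4 of 4 tested genes, none past the test. Bst2, or tetherin, which ties budding viruses to the cell, had log2 values of 8.68, 8.33 and 7.92 on diabetic arrays 1, 2 and 3 and 7.75, 8.15 and 7.53 on nondiabetic arrays 1, 2 and 3. Diabetic arrays 1 and 2 exceeded all nondiabetic arrays, diabetic array 3 did not, and the difference was 0.50 (SE 0.24) with an interval of -0.06 to 1.06. It was 0.32 without diabetic array 1. Ifitm3, which blocks virus entry at the endosome, had values of 11.16, 10.94 and 10.87 on diabetic arrays 1, 2 and 3 and 10.90, 11 and 10.85 on nondiabetic arrays 1, 2 and 3. These spanned little in either group, and the difference was 0.08 (SE 0.15), or -0.01 without diabetic array 1. Ifitm1 and Ifitm2, its neighbours in the genome, differed by 0.45 (SE 0.25) and 0.38 (SE 0.28). For Ifitm2, nondiabetic array 1 was lowest at 9.23, and without it the difference was 0.07. The dynamin-like GTPase genes Mx1 and Mx2 were left out as dim, at 3.5 ± 0.11 against 3.57 ± 0.08 and 5.0 ± 0.39 against 4.73 ± 0.23 (SD, n = 3 each).

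Iigp1, an immunity-related GTPase strongly induced by interferon gamma that attacks the vacuoles of intracellular parasites, had the largest difference of the 40 genes. Its values were 8.85, 8.94 and 8.74 on diabetic arrays 1, 2 and 3 and 7.98, 8.57 and 7.37 on nondiabetic arrays 1, 2 and 3. The diabetic arrays were close together and all above the nondiabetic arrays, which were spread over more than a log2 unit. The means were 8.84 ± 0.10 against 7.97 ± 0.60 (SD, n = 3 each). They differed by 0.87 (SE 0.28), or 1.83-fold, with an interval of 0.22 to 1.52. The unadjusted p of the limma fit was 0.0148 and the adjusted p was 0.997. Without nondiabetic array 3, the lowest, the difference was 0.57, and with any other array left out it was 0.82 to 1.17.

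The other 6 tested GTPase genes had differences of both signs. Irgm2, a regulatory GTPase of the same family, had values of 8.94, 8.71 and 8.28 on diabetic arrays 1, 2 and 3 and 8.30, 9.29 and 8.36 on nondiabetic arrays 1, 2 and 3. Nondiabetic array 2 was highest of all, and the difference was -0.01 (SE 0.30). Irgm1 and Igtp, further members of that family, differed by 0.12 and -0.02. The guanylate-binding proteins, which interferon gamma induces and which coat pathogens, went both ways: Gbp4 differed by -0.70 (SE 0.37), Gbp3 by 0.37 (SE 0.27) and Gbp7 by 0.02. Gbp4 rested on diabetic array 2, at 6.53 where the other arrays had 7.81 to 8.48, and differed by -0.25 without it. With array weights it differed by -1.25, but these gave diabetic array 2 a weight of 2.959 and diabetic arrays 1 and 3 weights of 0.491 and 0.672. Gbp3 differed by 0.15 without nondiabetic array 1 and by 0.16 without diabetic array 1. Gbp6 was dim, at 3.64 ± 0.02 against 3.51 ± 0.13. Gbp2 could not be measured alone: the probe set it shares with Gbp2b stood at 7.83 ± 0.36 against 7.36 ± 0.37 and differed by 0.47, which was not tested. A probe set that names Gbp2b alone was dim, at 4.06 ± 0.21 against 4.23 ± 0.07. The share of each gene in the signal of the shared probe set was not tested.

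**Figure D3:**
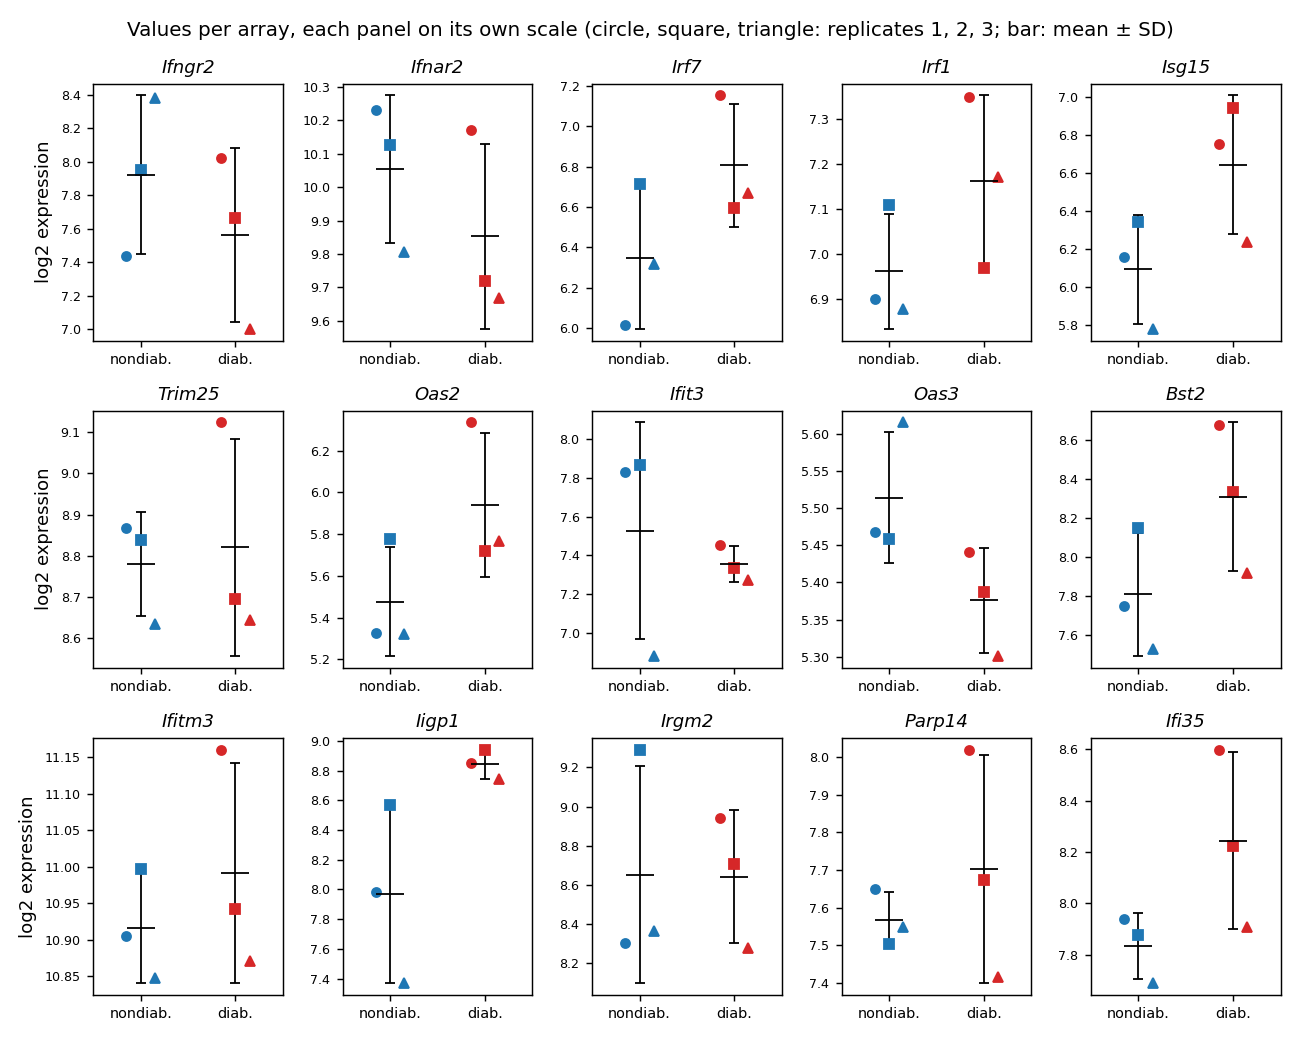
Log2 value on each array for the 15 interferon-stimulated genes described in full, nondiabetic in blue and diabetic in red, with symbols for replicates and bars for mean ± SD (n = 3 each). Each panel has its own vertical scale. The groups are apart for Iigp1 and Oas3 and overlap for the other 13 genes.

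The ADP-ribosylation genes and the remaining genes had differences whose intervals included 0. Parp14, an ADP-ribosyltransferase, had values of 8.02, 7.67 and 7.42 on diabetic arrays 1, 2 and 3 and 7.65, 7.50 and 7.55 on nondiabetic arrays 1, 2 and 3, and differed by 0.13 (SE 0.19). Parp9, which works in a complex with the ubiquitin ligase Dtx3l, differed by 0.04. The probe set that names both Dtx3l and Parp9 differed by 0.13, at 7.38 ± 0.13 against 7.24 ± 0.24 (SD, n = 3 each). Ifi35, an interferon-induced leucine zipper protein, had values of 8.60, 8.23 and 7.91 on diabetic arrays 1, 2 and 3 and 7.94, 7.88 and 7.69 on nondiabetic arrays 1, 2 and 3. Diabetic arrays 1 and 2 exceeded all nondiabetic arrays, and diabetic array 3 lay just below the highest of them. The difference was 0.41 (SE 0.20), or 0.23 without diabetic array 1. A second probe set of Ifi35 gave 0.43 with all arrays kept. Rtp4, a chaperone for receptors, differed by 0.36 (SE 0.34), and by -0.01 without nondiabetic array 3. Xaf1, which promotes cell death, differed by -0.20 (SE 0.24), with values of -0.44 without diabetic array 1 and -0.017 without diabetic array 3. The probe set of Oas1a, shared with Oas1g, was under the dim limit, at 4.44 ± 0.30 against 4.30 ± 0.04. Ifi44 had no probe set named here and was not analysed.

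The interferon-stimulated genes also differed between arrays of the same group. Diabetic array 1 was the highest of the 6 arrays for 21 of the 40 genes, or 52.5%, and the lowest for 0, where it was the highest for 29.9% and the lowest for 14.7% of all tested genes. Nondiabetic array 3 was the lowest for 14 genes, or 35%, against 18.4% of all tested genes, and diabetic array 3 for 13 genes, or 32.5%, against 20.9%. Averaged over the 40 genes, the log2 level was 7.76 on diabetic array 1, 7.36 and 7.29 on diabetic arrays 2 and 3, and 7.30, 7.51 and 7.30 on nondiabetic arrays 1, 2 and 3. The mean was thus 7.47 ± 0.25 in diabetic and 7.37 ± 0.12 in nondiabetic cells (SD, n = 3 each), and the groups overlapped. The same array stood highest in the endothelial genes, at 9.53, and in all tested genes, at 6.84. The part of this array-wide difference in the results of single genes was not tested.

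**Figure D4:**
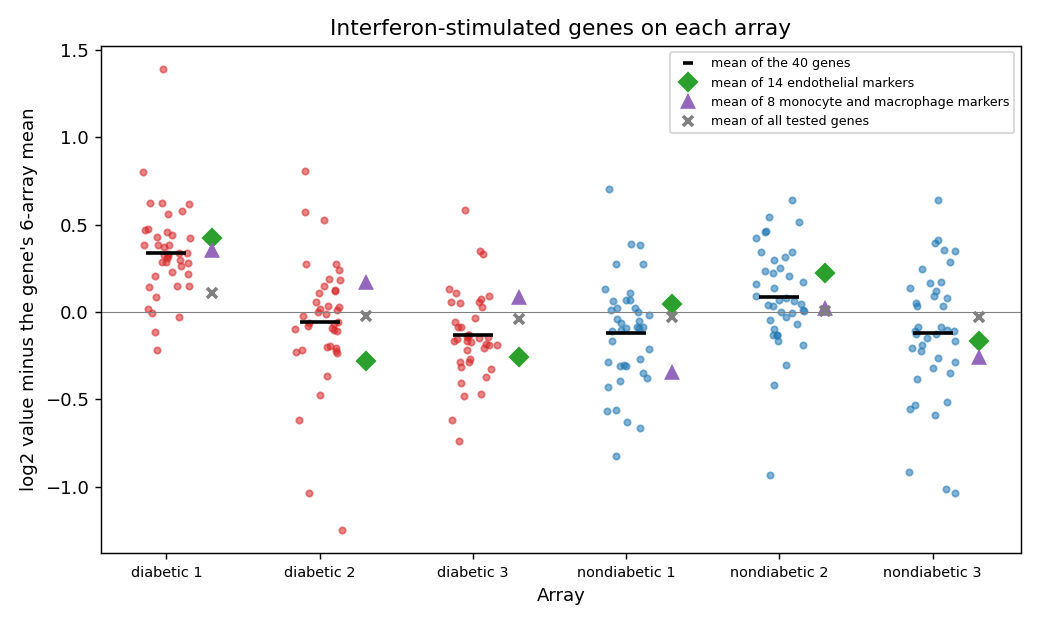
Log2 value of each of the 40 tested interferon-stimulated genes minus that gene's mean over 6 arrays, by array, with the mean of the 40 genes as a bar and the means of 14 endothelial markers, 8 monocyte and macrophage markers and all tested genes as symbols. On diabetic array 1 the 40 genes average 0.34 above their own means, the endothelial markers 0.43 and the monocyte and macrophage markers 0.35. In the same order, the averages are -0.055, -0.278 and 0.165 on diabetic array 2 and -0.13, -0.26 and 0.08 on diabetic array 3.

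Genes with and without a match to the core in the searched promoter window had differences of both signs and nearly the same median. The search covered only these letters in this window, so a gene without a match was not shown to lack a response element. The core was found for 16 tested genes, of which 11 had positive differences, with a median of 0.05 and a range of -0.27 to 0.55. These include Ddx58, Ifih1 and Ifitm3, whose matches lay only after the start site and whose differences were 0.30, 0.001 and 0.08. For the 16 tested genes with a promoter and no match, 9 had positive differences, with a median of 0.05 and a range of -0.38 to 0.65. The remaining tested genes had no promoter to search and stand in neither group. Among them were Iigp1 and Gbp4, whose differences of 0.87 and -0.70 were the highest and lowest of the 40 genes. Isg15 and Oas3, both with the core upstream of the start site, differed by 0.55 and -0.14. Irgm2 and Igtp, with nearly the same window, differed by -0.01 and -0.02.

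Other genes of the interferon pathway were taken from a list of 111, of which 99 were measured and 80 tested. None passed the adjusted test, with 0 of 80 higher and 0 lower, beside the 0% and 0.00751% of all tested genes. At an unadjusted p under 0.05, 7 were higher and 1 was lower, beside the 3.19% and 1.07% of all tested genes. All diabetic arrays exceeded all nondiabetic arrays for 7 of the 80 genes and lay below them for 1, beside 5.28% and 2.67% of all tested genes. Of the 17 measured genes for interferons themselves 10 were tested, 3 with positive and 7 with negative differences. Ifnb1, the gene of interferon beta, was dim, at 3.34 ± 0.06 against 3.31 ± 0.23 (SD, n = 3 each), and Ifng, that of interferon gamma, stood at 5.10 ± 0.33 against 5.17 ± 0.13, near the dim limit. Ifna7 and Ifna6, the interferon genes with the smallest p, differed by 0.53 (SE 0.26) and 0.28 (SE 0.19).

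Of 10 tested kinases and regulators of the receptors, 7 had positive differences. Ptpn11, a phosphatase of cytokine signaling, had values of 7.94, 7.84 and 7.70 in diabetic and 7.35, 6.94 and 7.66 in nondiabetic arrays 1 to 3, a difference of 0.51 (SE 0.21). Pias1, a regulator of cytokine signaling, had 9.0, 8.85 and 8.86 against 8.52, 8.70 and 8.42, a difference of 0.36 (SE 0.15). In both, all diabetic arrays exceeded all nondiabetic arrays, which held for 3 of the 10 genes and for 5.28% of all tested genes. Of 14 tested genes listed for the induction of interferons and its control, among them Adar, Irf2 and Irf2bp2, 10 had positive differences. Irf8 and Ikbke, a factor of myeloid cells and a kinase, differed by 0.35 (SE 0.25) and 0.27 (SE 0.20).

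Of 46 further interferon-induced genes, 26 had positive and 20 negative differences, with a median of 0.04. Those with the smallest p were Phf11b, a zinc finger gene, at 7.88 ± 0.13 against 6.96 ± 0.60 (SD, n = 3 each), and Cd274, the checkpoint ligand PD-L1, at 7.49 ± 0.28 against 6.71 ± 0.40. Their differences were 0.92 (SE 0.28) and 0.78 (SE 0.24), and their groups did not overlap. Cxcl9, a chemokine induced by interferon gamma and named here after its values were seen, stood at 9.48, 9.81 and 9.04 in diabetic and 7.97, 9.09 and 7.16 in nondiabetic arrays 1 to 3. Its groups overlapped and its difference was 1.37 (SE 0.45), with an adjusted p of 0.997 in the limma fit. As with Iigp1, nondiabetic array 3 was the lowest and nondiabetic array 2 the highest of its group. The gene of this list that was lower at an unadjusted p under 0.05 was Trim21, which encodes an antibody receptor inside cells. It stood at 6.69, 6.72 and 6.18 in diabetic and 7.44, 7.22 and 6.79 in nondiabetic arrays 1 to 3, all diabetic arrays below all nondiabetic arrays, and differed by -0.62 (SE 0.23). Ifi204, a DNA sensor also named after its values were seen, differed by -0.79 (SE 0.49), with overlapping groups, and by -0.30 without nondiabetic array 2.

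Markers of other cells that a marrow sort could hold differed between the groups to different degrees, and their part in the values above was not tested. Of 12 monocyte and macrophage genes 8 were tested, 8 of them with positive differences, and their mean level was 7.59 to 7.86 on diabetic and 7.16 to 7.53 on nondiabetic arrays; Adgre1, the macrophage marker F4/80, and Fcgr1 were dim. Ms4a6c and Ly6c2 of that list differed by 0.68 and 0.33. Of 11 neutrophil genes 7 were tested, with mean levels of 7.39 to 7.62 against 6.90 to 7.25, and Ly6g, Ltf and Camp were dim; S100a9 and Mpo differed by 0.58 and 0.26. For plasmacytoid dendritic cells, which produce interferon and carry Bst2, 7 of 10 listed genes were tested, 4 with positive and 3 with negative differences. Their mean levels were 6.97 to 7.35 against 6.87 to 6.92. That list holds Bst2 itself, its Tcf4 differed by -0.08 and its Ly6d by 1.03. B and plasma cell genes stood at 7.12 to 7.83 against 6.98 to 7.27, with positive differences in 5 of 7 tested genes. Jchain differed by 0.23, and Cd79a by 0.94, with 7.15 on diabetic array 1, 5.15 and 5.32 on diabetic arrays 2 and 3 and 4.83 to 5.05 on nondiabetic arrays. Differences of -0.23 and -0.05 belonged to Ebf1 and Pax5, which were chosen after their values were seen. T and NK cell genes stood at 6.31 to 6.81 against 6.24 to 6.88, with negative differences in 4 of 6 tested genes, and Cd3e, Cd3g and Cd3d were dim. Gzmb differed by 0.35, and by 0.015 without nondiabetic array 2. The 4 general leukocyte genes stood at 8.92 to 9.21 against 8.71 to 9.07, with 0.12 for Cd52 and 0.53 for Laptm5.

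Within the endothelium, markers of the sinusoidal and arteriolar vessels had differences of mostly opposite sign, positive for 6 of 7 and negative for 8 of 8 genes. The 7 sinusoidal genes had mean levels of 8.28 to 8.76 on diabetic and 7.77 to 8.01 on nondiabetic arrays, with differences of 1.09 for the scavenger receptor gene Stab2 and 0.24 for Il6st. The 8 arteriolar genes stood at 7.49 to 8.08 against 7.94 to 8.38, with -0.88 for Igfbp3. The 14 general endothelial genes stood at 8.83 to 9.53 against 8.94 to 9.33, with -0.30 for Flt1. None of these marker genes passed the adjusted test, and whether the mix of vessels bears on the interferon-stimulated genes was not tested.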

How the data were processed

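Total RNA from the sorted cells was amplified (Ovation Pico WTA System V2), labelled with biotin and read on 6 arrays, per the labels' protocols. The deposited values are log2 signals from RMA, a method of background correction, quantile normalization and probe summary, per the submitters' processing notes; its software, version and annotation: not given in the sources used here. The platform annotation, which can be old, named 1 gene for 23521 of 41345 probe sets, several for 1814 and none for 16010. Genes whose mean lay under the 40th percentile (5.07) counted as dim and were not tested. The comparison used lmFit and eBayes of limma 3.58.1 (R 4.3.3) with no covariates, 3 arrays a group, and Benjamini-Hochberg adjustment over 13308 genes; intervals are 95% and unadjusted. The steps were tested on simulated data, and the number of arrays limits the precision.

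The members and lists were chosen with earlier results of these data known. Values on every array are given, in each role class, for the gene with the smallest p and the gene with the highest mean, and for any gene with an unadjusted p under 0.05 or with groups apart. From each other pathway list the 2 genes with the smallest p are named, and from each marker list the gene with the highest mean and that with the smallest p. Results were recomputed without the dim filter and with it at the 60th percentile, on averaged and on separate probe sets, after a second quantile normalization or median centring, with other eBayes options, array weights or replicate blocks, and without single arrays.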

Additional observations from a re-analysis of the deposited data

How the results depend on the processing

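Under all 15 alternatives, limma called 0 interferon-stimulated genes higher and 0 lower at an adjusted p under 0.05; at an unadjusted p under 0.05 there were 2, and there were 6 with array weights, 3 with the replicate block and 1 to 5 with an array left out. Isg15 missed that threshold after a second quantile normalization (unadjusted limma p 0.0569) and with 4 of the 6 arrays left out in turn (0.0724 to 0.156), and Iigp1 passed it in each alternative. Over all genes, the 1 lower call was lost without nondiabetic array 3 and under the stricter dim filter. The median difference of the tested genes was 0.07, from 0.04 to 0.08 under the 9 alternatives that keep all arrays, and from -0.02 to 0.18 with an array left out. The sign was kept in all alternatives run for 22 of the 40 genes, 13 with positive and 9 with negative differences. With the replicate block the median difference was also 0.07 and 0 genes were called; the labels share replicate numbers but name no pairing, and deviations of same-numbered arrays correlated by -0.036, -0.064 and 0.016. The block changed no adjusted call; at an unadjusted p under 0.05 it added Bst2 (limma p 0.0477), Ifna7 (0.0442) and Cd79a (0.0473) and lost Pias1 (0.0864), Ptpn11 (0.0537) and S100a9 (0.0514). Signs turned with quantile normalization to -0.005 for Cmpk2, -0.030 for Gbp7, -0.063 for Ifih1, -0.023 for Parp9, -0.043 for Stat2, with median centring to -0.006 for Ifih1, and with array weights to -0.11 for Cmpk2, -0.019 for Gbp7, -0.18 for Ifih1, -0.020 for Ifnar1, 0.053 for Igtp, -0.088 for Jchain, -0.11 for Parp9, -0.11 for Stat2, -0.054 for Trim25. Among genes whose sign turned with 1 array left out, differences ran from -0.34 to 0.046 for Cdh5, -0.14 to 0.33 for Cmpk2, -0.025 to 0.62 for Ddx58, -0.20 to 0.23 for Gbp7, -0.26 to 0.14 for Ifih1, -0.17 to 0.39 for Ifit1, -0.009 to 0.14 for Ifitm3, -0.054 to 0.26 for Ifnar1, -0.27 to 0.28 for Igtp, -0.14 to 0.26 for Irgm1, -0.18 to 0.31 for Irgm2, -0.33 to 0.001 for Oasl1, -0.47 to 0.23 for Oasl2, -0.024 to 0.28 for Parp14, -0.12 to 0.16 for Parp9, -0.12 to 0.066 for Pax5, -0.009 to 0.68 for Rtp4, -0.20 to 0.16 for Stat2, -0.23 to 0.020 for Tcf4, -0.11 to 0.13 for Trim25, -0.23 to 0.47 for Usp18. The causes were not tested. The deposited values carry no detection calls, and how far values near the dim limit of 5.07, such as those of Oas3, stand above background is unknown.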
